A study of Bos taurus with 20 samples.

Results

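The genes described here are the transporters of amino acids and of monocarboxylates in clonal mesenchymal stem cell (MSC) populations from cattle. They were chosen by symbol, as every gene of the count table in the solute carrier families SLC1A, SLC3A, SLC6A, SLC7A, SLC16A, SLC36A, SLC38A and SLC43A, which gave 73 of 33063 named genes. The rule reads symbols and no measured value. A gene of the list, SLC7A6OS, carries a matching symbol but is not a transporter; it lies opposite SLC7A6 and is counted and named separately where it matters.

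MSCs were grown from visceral fat of crossbred Holstein Friesian x Aberdeen Angus calves, sorted into single cells and expanded as clones in medium with fetal bovine serum and basic fibroblast growth factor. RNA was taken from undifferentiated cells of 10 adipogenic (A) clones, those that formed lipid-laden adipocytes best when tested, and 10 non-adipogenic (N) clones, which formed none. The clones were balanced within animals, with 1 of either type from animals 17 and 20 and 4 of either type from animals 22 and 23. Each library is 1 clone that began as a single cell, no genotype or treatment separates the groups, and clones of 1 animal share that animal, so p-values measure the spread between these clones and not between cattle.

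Cells take up amino acids through carriers with overlapping substrates. Some run on the sodium gradient, others exchange an amino acid inside the cell for another outside, and many of the exchangers are light chains that reach the plasma membrane only when bound to the heavy chain SLC3A2. Monocarboxylate carriers of the SLC16A family move lactate, pyruvate and ketone bodies with a proton and need a chaperone, basigin or embigin, at the membrane, although the family also holds carriers of other substrates such as aromatic amino acids. Amino acids entering the cell feed protein and glutathione synthesis and, through sensors at the lysosome, the growth kinase complex mTORC1, and differentiating adipocytes draw on branched-chain amino acids as they fill with lipid.

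Libraries held between 14615493 and 43111345 counts in named genes, with a median of 16316703.5 in N and 16112862 in A clones. The summed level of 8 mesenchymal markers was 9070 to 24200 CPM (counts scaled to library size) (COL1A1 alone had a mean of 13576 CPM in A and 10432 CPM in N clones). In N clone 22-5 the mesenchymal markers NT5E, THY1 and ENG were at 0.508, 0.395 and 19.1 CPM, against medians of 83.2, 50.1 and 347 CPM over the N clones. None of the 8 was called between groups, and endothelial markers were low (1.07 to 41.3 CPM). Of the 5 leukocyte markers only CD68 passed the expression filter, and it was higher in A clones. The summed list was at 2.75 to 11.4 CPM in A and 0.649 to 10.4 CPM in N clones. PTPRC, which defines leukocytes, had 8 counts over all clones. CSF1R, untested, had 7 to 35 counts in A and 0 to 10 counts in N clones, with no overlap in CPM. AIF1 and CD14, also untested, overlapped but had higher medians in A clones (0.208 against 0.06 and 0.953 against 0.135 CPM). Of 4 tested mature adipocyte markers, PLIN1 was higher in A clones, and the defining ADIPOQ and LEP had 88 and 12 counts over all clones. N clones 22-5 and 22-9 stood apart. Their summed mesothelial markers were 9198 and 6512 CPM, against at most 1095 CPM in the other 18 clones. Most of the sum was the keratins KRT8, KRT18 and KRT19 (4779, 824 and 2263 CPM in 22-5, and 2727, 727 and 1806 CPM in 22-9). These keratins, MSLN, WT1 and LRRN4 were each higher in both clones than in any other. UPK3B was not, at 6.89 and 11.8 CPM against 16.5 CPM in A clone 22-11 and 14.9 CPM in N clone 23-10. Of the 6 tested markers of that list only MSLN was called, lower in A clones, and 2 had a positive log2 fold change. The sum was 7.73 to 1095 CPM in A clones and at most 276 CPM in N clones other than 22-5 and 22-9. Of 6 proliferation markers, 3 were lower in A clones (MKI67, TOP2A and CDK1), and the summed level of the list was 24.2 to 295 CPM in A and 102 to 492 CPM in N clones. Of 6 tested smooth muscle and pericyte markers, MYH11 and CSPG4 were higher in A clones. The part of these differences in the transporter results was not tested. In bulk RNA, fewer cells of a type and less RNA per cell cannot be told apart.

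Few of the transporters were called between A and N clones, and 3 of those called were carriers of the SLC16A family. Of the 73 members, 41 passed the expression filter and were tested. Of these, 5 were called at an adjusted p under 0.05 (edgeR quasi-likelihood test with animal as a block, Benjamini-Hochberg adjustment over all genes tested), 4 higher and 1 lower in A clones. Over all 12900 genes tested, 20.6% were called, 10.3% higher and 10.3% lower, against 12.2% of the members. Whether these shares differ was not tested, and their order changed with the animals used. A change of at least 2-fold was called for 2 members, against 5.76% of all genes. In 1 member, SLC16A10, the A and N clones did not overlap, against 0.318% of all genes. The median log2 fold change (A against N) of the 41 members was -0.08 and 19 of them had a positive sign, while over all genes the median was -0.01 and 6290 of 12900 were positive. Summed over the 72 transporters the level was 2378 ± 399 CPM in A and 2451 ± 290 CPM in N clones (SD, n = 10 each).

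**Figure D1:**
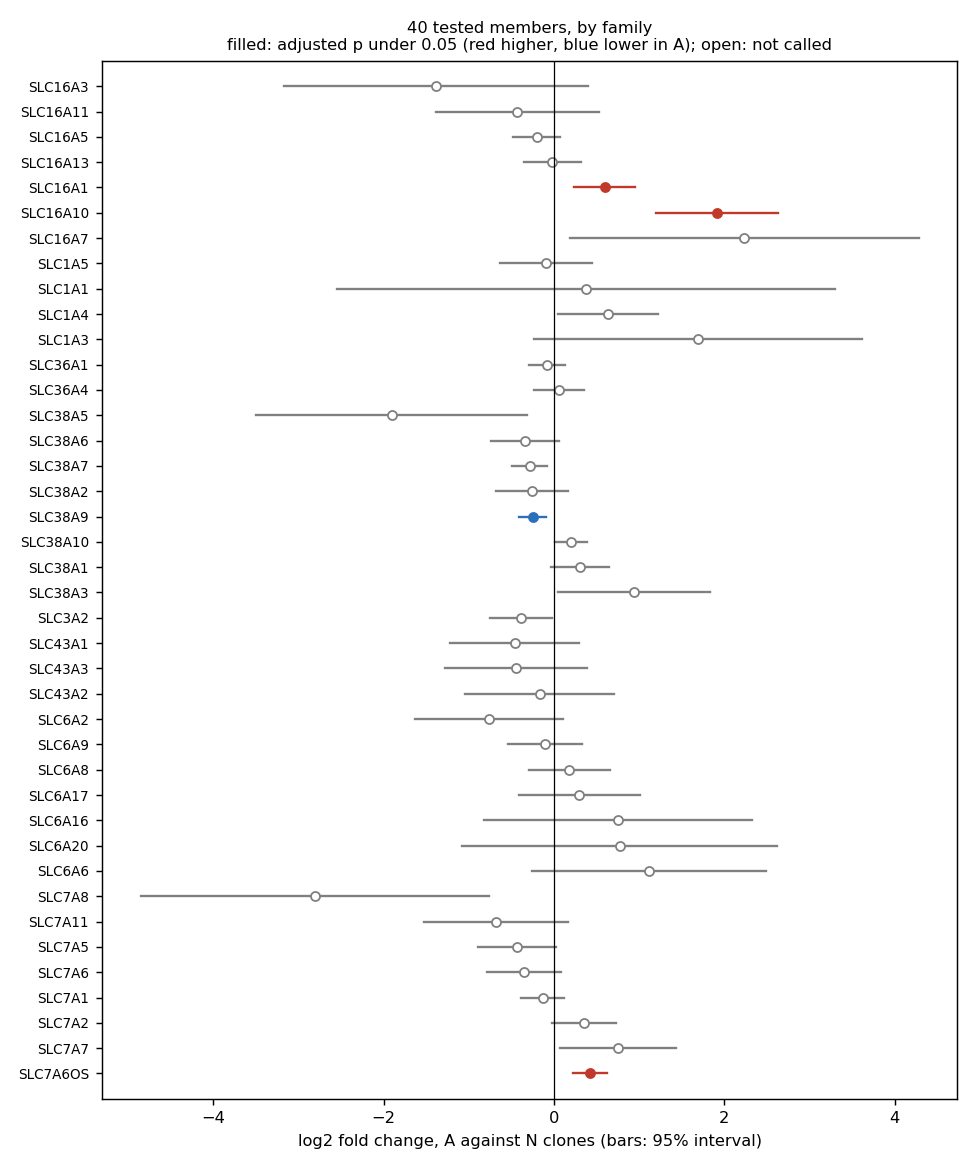
Log2 fold change of each of 40 tested members (A against N clones, horizontal axis, edgeR with animal as a block), grouped by family, with bars of the 95% interval (normal approximation). Filled points are 4 called members, among which SLC16A10 at 1.91 lies farthest to the right.

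SLC16A10 encodes TAT1, also called MCT10, which carries aromatic amino acids and thyroid hormone. Its level was 2.19, 3.17 and 12.8 CPM in the lowest, median and highest A clone and 0.118, 0.81 and 1.80 CPM in the lowest, median and highest N clone. Every A clone was above every N clone. The highest A value came from clone 20-106. SLC16A10 rose by 1.91 on the log2 scale (SE 0.365, adjusted p = 0.0029 by edgeR), and the differences within animals 17, 20, 22 and 23 were 1.80, 3.81, 1.57 and 2.09.

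SLC16A1 encodes MCT1, which moves lactate, pyruvate and ketone bodies in either direction. A clones ranged from 77.3 CPM through a median of 160 to 279 CPM, and N clones from 62.4 through 116 to 204 CPM. The groups overlapped widely, with 3 A clones above every N clone. SLC16A1 rose by 0.60 on the log2 scale (SE 0.182, adjusted p = 0.029 by edgeR). Within animals 17, 20, 22 and 23 the differences were 0.31, 1.07, 0.11 and 0.99. Without the animal block the adjusted p was 0.105, and the call was lost in 6 of the 20 fits without 1 clone, those without N clones 20-15, 23-10, 23-22 or 23-74 or A clones 20-106 or 22-27, with a highest adjusted p of 0.0633.

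SLC16A3 encodes MCT4, which exports lactate from glycolytic cells. It was low in most clones, at 0.122, 0.649 and 2.49 CPM in the lowest, median and highest A clone and 0.127, 0.831 and 20.2 CPM in N clones, and its log2 fold change of -1.38 (SE 0.911, adjusted p = 0.283 by edgeR) did not pass. Without N clones 22-5 and 22-9 the value was 0.35. Of the 14 SLC16A members, 8 were tested and 3 were called, all higher in A clones, against 10.3% of all genes called higher. A positive log2 fold change was found for 4 of the 8. The summed level of the family was 229 ± 61.8 CPM in A and 161 ± 46.2 CPM in N clones (SD, n = 10 each). Most of that sum was SLC16A1, with means of 180 CPM in A and 122 CPM in N clones.

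**Figure D2:**
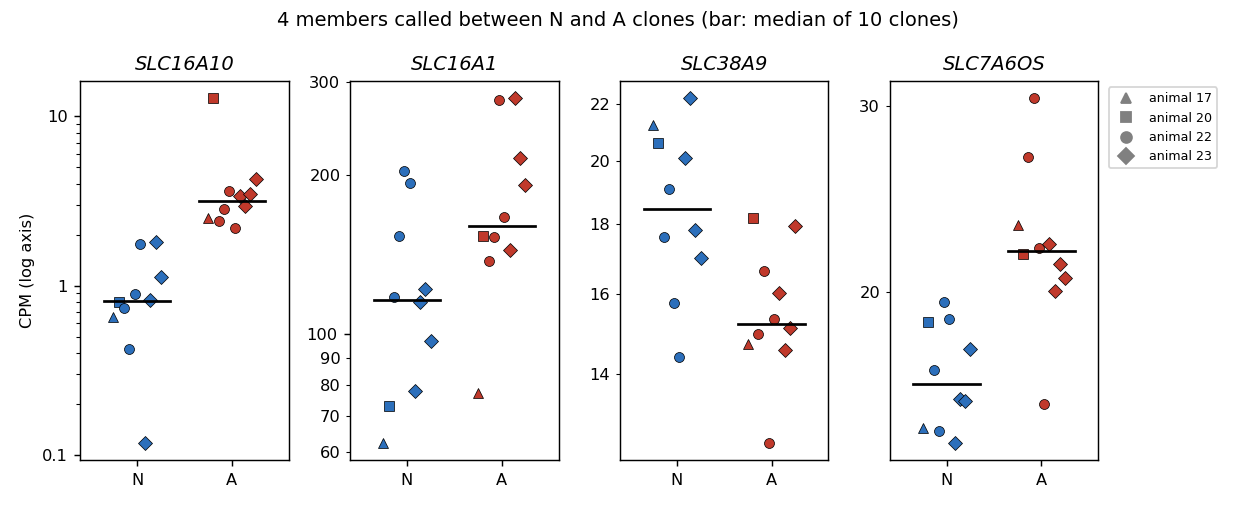
Level of 4 called members in each clone (vertical axis, CPM on a log axis with a separate range per gene), N clones in blue and A clones in red, with the animal as symbol and the median of 10 clones as a bar. SLC16A10 has no overlap between groups, and A clone 20-106 (red square) lies highest for it.

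The companion genes of these carriers were read from lists of pathway partners. Each list's count of called genes stands beside 20.6% of all genes called, 10.3% higher and 10.3% lower. Whether any list differed from that share was not tested. Embigin (EMB), a chaperone of the SLC16A carriers, was measured at 0.0366 to 30.5 CPM in A clones (median 5.79) and 0.0631 to 7.0 CPM in N clones (median 0.247). EMB rose by 3.07 on the log2 scale (SE 0.898, adjusted p = 0.0247 by edgeR), with 5 A clones above every N clone and 1 A clone below all of them, and had an adjusted p of 0.11 when limma-voom was used with a random animal effect. Basigin (BSG), the chaperone of MCT1 and MCT4, had a log2 fold change of 0.25 (SE 0.175, adjusted p = 0.323 by edgeR).

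Of 4 tested genes of thyroid hormone handling, 1 was called. THRA, a nuclear receptor of the hormone, was measured at 10.7, 16.4 and 21.3 CPM in the lowest, median and highest A clone and 20.2, 32.9 and 44.1 CPM in N clones. THRA fell by 0.98 on the log2 scale (SE 0.152, adjusted p = 0.00092 by edgeR), and 9 of 10 A clones lay below every N clone. THRB, the other receptor gene, had a log2 fold change of 0.97 (SE 0.678, adjusted p = 0.312 by edgeR).

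Of 9 tested genes that handle lactate and pyruvate, 1 rose and 2 fell. PDK3, a kinase that inhibits pyruvate dehydrogenase, was higher in A clones (log2 fold change 0.87, SE 0.234, adjusted p = 0.0164 by edgeR). PDHB and PDHA1, subunits of pyruvate dehydrogenase, were lower (-0.53, SE 0.11, adjusted p = 0.0046, and -0.23, SE 0.0781, adjusted p = 0.0467 by edgeR), and the call on PDHA1 was kept in only 5 of 20 fits without 1 clone. LDHA and LDHB, the lactate dehydrogenase subunits with the highest CPM in the list, had log2 fold changes of 0.13 and -0.18 and did not pass.

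Among the sodium coupled neutral amino acid carriers of the SLC38A family, 8 of 11 were tested and 1 was called. SLC38A9, a lysosomal carrier through which mTORC1 senses arginine, was measured at 12.5, 15.2 and 18.2 CPM in the lowest, median and highest A clone and 14.4, 18.5 and 22.2 CPM in N clones. The groups overlapped, with 5 N clones above every A clone. SLC38A9 fell by 0.25 on the log2 scale (SE 0.081, adjusted p = 0.038 by edgeR) and was lower in A clones within all 4 animals. The call was lost without the animal block (adjusted p = 0.0521) and in 11 of the 20 fits without 1 clone, those without N clones 17-23, 22-5, 22-9, 23-10 or 23-22 or A clones 17-57, 22-11, 22-27, 23-14, 23-62 or 23-68, with a highest adjusted p of 0.0784.

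SLC38A2, the carrier SNAT2 that amino acid shortage induces, was measured at 285 to 892 CPM in A and 300 to 934 CPM in N clones and had a log2 fold change of -0.26 (SE 0.217, adjusted p = 0.404 by edgeR). SLC38A1, which carries glutamine as SNAT1, had a log2 fold change of 0.30 (SE 0.175, adjusted p = 0.218 by edgeR), with 5 A clones above every N clone. SLC38A5, named after its values were seen, carries glutamine, asparagine and serine; it ranged from 0 to 25.9 CPM in A and from 0.339 to 66.3 CPM in N clones. Its log2 fold change was -1.91 (SE 0.81, adjusted p = 0.101 by edgeR). SLC38A5 was called by DESeq2 with the animal block, but not by DESeq2 without it or by limma-voom. By edgeR it was called when N clones 22-5 and 22-9 were left out, a choice made after the data were seen.

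Of 24 tested genes of amino acid sensing to mTORC1, 2 rose and 2 fell. FNIP2, a partner of folliculin, was higher in A clones (log2 fold change 0.84, SE 0.143, adjusted p = 0.0016 by edgeR), with 8 A clones above every N clone. SAR1B, a leucine sensor, was higher by 0.28 (SE 0.0935, adjusted p = 0.0428 by edgeR). DEPDC5 and NPRL2, subunits of the GATOR1 complex that restrains mTORC1, had log2 fold changes of -0.46 and -0.41 (adjusted p = 0.015 and 0.0441 by edgeR). The calls on SAR1B and NPRL2 were kept in 5 and 7 of the 20 fits without 1 clone.

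Of the 12 tested SLC1A, SLC3A and SLC7A transporters, 0 were called by edgeR and 3 had an unadjusted p under 0.05 (SLC1A4, SLC7A7 and SLC7A8), while DESeq2 with the animal block called SLC7A8 and the untested SLC7A4. SLC1A5, the glutamine carrier ASCT2, was measured at 68.0, 133 and 342 CPM in the lowest, median and highest A clone and 75.1, 169 and 231 CPM in N clones. Its log2 fold change of -0.09 had a 95% interval from -0.63 to 0.45 (adjusted p = 0.834 by edgeR). SLC1A4, the alanine and serine carrier ASCT1, was measured at 49.2 to 210 CPM in A and 28.8 to 124 CPM in N clones, with a log2 fold change of 0.64 (SE 0.3, adjusted p = 0.135 by edgeR). SLC1A3, the glutamate carrier EAAT1, was low and uneven, at 0.545 to 6.70 CPM in A and 0 to 16.4 CPM in N clones, and its log2 fold change was 1.69 (SE 0.984, adjusted p = 0.224 by edgeR).

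SLC3A2, the heavy chain 4F2hc, was measured at 115, 202 and 304 CPM in the lowest, median and highest A clone and 125, 270 and 391 CPM in N clones. It had a log2 fold change of -0.38 (SE 0.187, adjusted p = 0.149 by edgeR). Among its light chains, SLC7A5 (LAT1, large neutral amino acids) had a log2 fold change of -0.43 (SE 0.231, adjusted p = 0.184 by edgeR). SLC7A6 (y+LAT2, exchange of cationic for neutral amino acids) had one of -0.35 (SE 0.22, adjusted p = 0.258 by edgeR). SLC7A11 (xCT, cystine uptake in exchange for glutamate) had one of -0.68 (SE 0.429, adjusted p = 0.262 by edgeR), with 6.67 to 92.2 CPM in A and 7.23 to 87.4 CPM in N clones. SLC7A7 (y+LAT1), named after its values were seen, was measured at 0.735 to 6.87 CPM in A and 1.12 to 5.06 CPM in N clones, with a log2 fold change of 0.76 (SE 0.349, adjusted p = 0.128 by edgeR). The summed level of the light chain genes was 155 ± 59.8 CPM in A and 221 ± 51.0 CPM in N clones (SD, n = 10 each). It includes SLC7A8, with means of 1.08 CPM in A and 18.9 CPM in N clones. N clones 22-5 and 22-9 were at 88.5 and 91.9 CPM for that gene. SLC7A1, the cationic amino acid carrier CAT1, had a log2 fold change of -0.13 (SE 0.128, adjusted p = 0.478 by edgeR).

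SLC7A6OS, the gene opposite SLC7A6, was measured at 15.7, 21.9 and 30.5 CPM in the lowest, median and highest A clone and 14.4, 16.4 and 19.6 CPM in N clones, and 9 A clones exceeded all N clones. It rose by 0.42 on the log2 scale (SE 0.101, adjusted p = 0.0094 by edgeR). The library kit keeps strand, but the strand setting of the counting is not given in the sources used here, so reads of SLC7A6OS and SLC7A6 may not be fully separated. In a RefSeq gene table of a later assembly than the one used for mapping, 17 of the 41 tested members overlap another gene, 7 of them a protein-coding gene.

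Glutathione synthesis uses the cystine that SLC7A11 imports, and of 8 tested genes 1 rose and 1 fell. GCLC, the catalytic subunit of the first enzyme, was measured at 39.1, 131 and 245 CPM in the lowest, median and highest A clone and 22.3, 41.3 and 112 CPM in N clones. GCLC rose by 1.41 on the log2 scale (SE 0.326, adjusted p = 0.0081 by edgeR), with 5 A clones above every N clone. GSR, which recycles oxidised glutathione, was lower (-0.49, SE 0.159, adjusted p = 0.0375 by edgeR), a call kept in 7 of 20 fits without 1 clone. GPX4, a glutathione peroxidase, had a log2 fold change of 0.07 and did not pass.

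Glutamine and glutamate metabolism had 2 genes higher and 1 lower of 9 tested. GLUL, glutamine synthetase, was measured at 51.8, 129 and 386 CPM in the lowest, median and highest A clone and 33.8, 67.1 and 129 CPM in N clones. GLUL rose by 1.27 on the log2 scale (SE 0.364, adjusted p = 0.0229 by edgeR), with an adjusted p of 0.0559 without N clones 22-5 and 22-9. OAT, ornithine aminotransferase, was higher by 0.30 (SE 0.0714, adjusted p = 0.0099 by edgeR), and GLUD1, glutamate dehydrogenase, was lower (-0.32, SE 0.0923, adjusted p = 0.0218 by edgeR). Without the animal block GLUD1 had an adjusted p of 0.0716 and OAT lay at the threshold (0.050).

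Of 18 genes of the amino acid response that ATF4 drives, 4 were lower in A clones and 0 were higher. Over all genes tested, 20.6% were called, 10.3% lower and 10.3% higher. The median log2 fold change of the list was -0.36. The 4 were the transcription factors ATF3, ATF5 and CEBPB (-1.10, -0.89 and -0.89) and ALDH18A1, an enzyme of proline synthesis (-0.37), with adjusted p from 0.0067 to 0.0426 by edgeR. The call on ATF5 was kept in 7 of 20 fits without 1 clone, and ATF3 had an adjusted p of 0.0744 without the animal block. ATF4 itself had a log2 fold change of -0.26 (SE 0.141, adjusted p = 0.198 by edgeR), and ASNS, asparagine synthetase, one of -0.21 (SE 0.271, adjusted p = 0.597 by edgeR).

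Branched-chain amino acid catabolism had 1 gene higher and 2 lower of 19 tested. The median log2 fold change of the list was -0.21, and 6 of the 19 genes had a positive value. BCKDHA, a subunit of the branched-chain ketoacid dehydrogenase, was higher (0.39, SE 0.116, adjusted p = 0.0276 by edgeR, called in 15 of 20 fits without 1 clone, with an adjusted p of 0.0886 without the animal block), and BCKDK, the kinase that inhibits that enzyme, was lower (-0.52, SE 0.119, adjusted p = 0.007 by edgeR). MCCC1, an enzyme of leucine breakdown, was lower (-0.51, SE 0.119, adjusted p = 0.0085 by edgeR). BCAT1 and HIBADH, with the highest CPM in the list, had log2 fold changes of -0.41 and -0.08 and did not pass.

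Arginine and polyamine metabolism had 2 genes higher and 1 lower of 10 tested. AMD1 and AZIN1, which favour polyamine synthesis, were higher by 0.61 and 0.38 (adjusted p = 0.0288 and 0.0166 by edgeR). SAT1, which starts polyamine breakdown, fell by 0.60 (SE 0.176, adjusted p = 0.0249 by edgeR). AMD1 and SAT1 had adjusted p of 0.0966 and 0.144 without the animal block. ODC1 and OAZ1, with the highest CPM in the list, had log2 fold changes of 0.22 and 0.03 and did not pass.

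Of the 7 tested SLC6A members, 0 were called by edgeR and 0 had an unadjusted p under 0.05, and DESeq2 and limma-voom called 0 as well. SLC6A6, the taurine carrier, was measured at 10.8, 15.2 and 113 CPM in the lowest, median and highest A clone and 1.17, 8.63 and 40.0 CPM in N clones, with a log2 fold change of 1.12 (SE 0.702, adjusted p = 0.259 by edgeR). SLC6A8, the creatine carrier, had one of 0.18 (SE 0.242, adjusted p = 0.614 by edgeR). The creatine and taurine list had 0 of 5 tested genes called by edgeR and 2 at an unadjusted p under 0.05 (CKB and CDO1, which DESeq2 with the animal block called), and its genes of highest CPM, CKB and CSAD, had log2 fold changes of 0.93 and -0.03.

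SLC36A1, a proton coupled carrier of small neutral amino acids found on lysosomes, was measured at 33.7 to 72.6 CPM in A and 28.5 to 68.3 CPM in N clones (log2 fold change -0.08, SE 0.106, adjusted p = 0.613 by edgeR). SLC43A1 (LAT3) and SLC43A2 (LAT4), which carry large neutral amino acids, had log2 fold changes of -0.46 (SE 0.386, adjusted p = 0.406) and -0.17 (SE 0.445, adjusted p = 0.812 by edgeR). SLC43A3, a carrier of purine bases, had one of -0.44 (SE 0.425, adjusted p = 0.474 by edgeR).

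Levels varied widely among the clones. Ranges were taken on log2 CPM with a prior count of 2. The highest of the 20 clones was under 2-fold above the lowest for 3 of the 41 tested members, 2- to 16-fold for 23 and over 16-fold for 15, with a median log2 range of 2.86. The 3 were SLC38A9, SLC38A10 and SLC38A7, of which the last 2 were named after their values were seen. SLC38A7 lay at the limit (log2 range 0.999), and from 18.9 to 37.9 CPM without the prior count it was just over 2-fold. SLC7A8 and SLC38A5 had the widest ranges, 9.82 and 9.09 on the log2 scale.

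**Figure D3:**
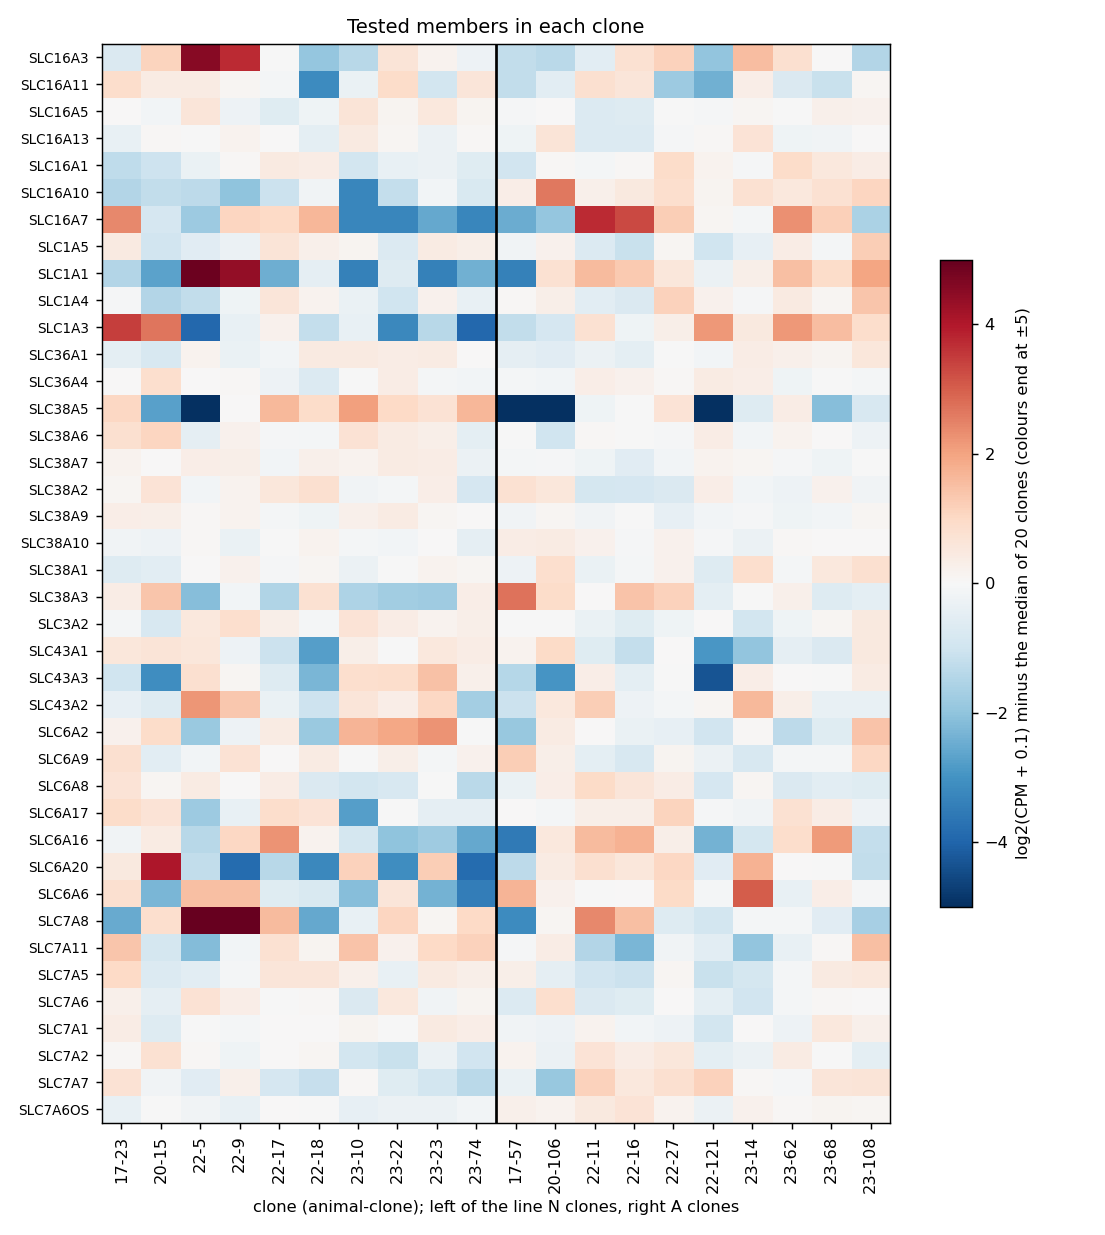
Level of 40 tested members (rows, by family) in each clone (columns, animal-clone), as log2(CPM + 0.1) minus the median of the 20 clones, with colours ending at ±5. SLC16A10 is red in most A clones, while SLC7A8, SLC1A1 and SLC16A3 are deep red in N clones 22-5 and 22-9.

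N clones 22-5 and 22-9, the clones with a high sum of mesothelial markers, had 3 transporters at levels above those of all other clones. Of these, SLC7A8 and SLC1A1 were picked after seeing their values. SLC7A8, a light chain of SLC3A2 for neutral amino acids (LAT2), was at 88.5 and 91.9 CPM in the 2 clones and at most 4.59 CPM in the other 18. SLC1A1, the glutamate and cysteine carrier EAAT3, was at 31.0 and 21.3 CPM against at most 3.99 CPM. SLC16A3 was at 20.2 and 11.6 CPM against at most 2.49 CPM. In these 3 members, 7.32% of the 41 tested, both clones were above all others, a share near the 5.4% of all genes. Whether these shares differ was not tested.

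Among the other 8 N clones the median of SLC7A8 was 1.16 CPM, against a median of 0.612 CPM in the 10 A clones, and its log2 fold change over all 20 clones was -2.81 (SE 1.04, adjusted p = 0.0644 by edgeR), a value that was called by edgeR without the animal block and by DESeq2 with it, but not by DESeq2 without it or by limma-voom. The median of SLC1A1 was 0.0934 CPM in the other 8 N clones and 1.77 CPM in the A clones, with a log2 fold change of 0.38 (SE 1.49, adjusted p = 0.878 by edgeR) over all 20. Without the 2 clones, 5 members were called, among them SLC1A1, SLC16A10 and SLC7A6OS, higher in A clones, and SLC38A5, lower, whereas SLC16A1 and SLC38A9 were not (adjusted p = 0.0675 and 0.109 by edgeR). In that fit 12.2% of the members and 14.2% of all genes were called. The 2 clones were left out after the data were seen. SLC1A1 was picked for its high values in them, so its call is no independent result. For SLC38A5, 22-5 was the lowest N clone, so leaving it out favours that call. The part of mesothelial cells in these values was not tested.

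**Figure D4:**
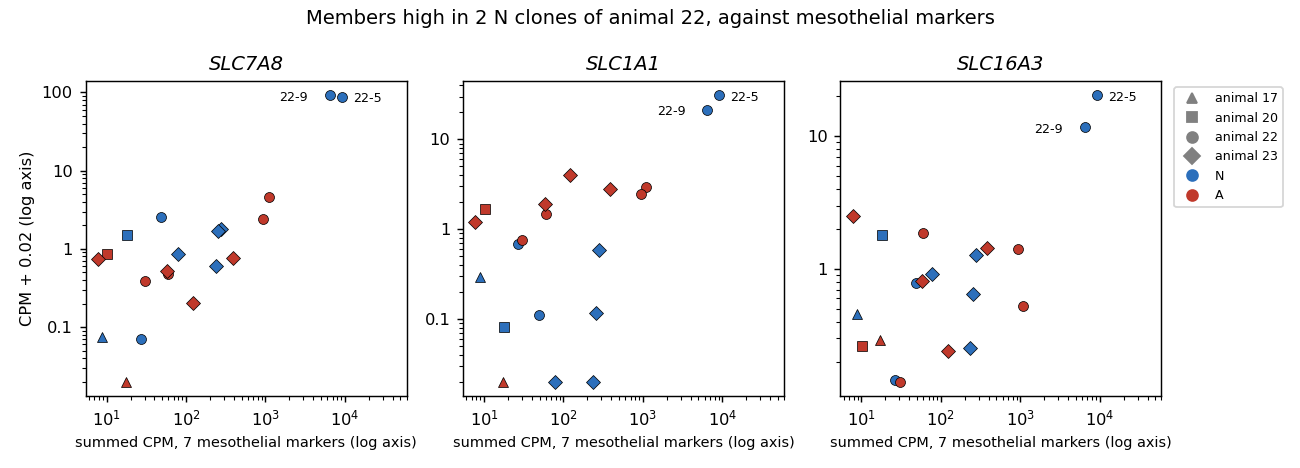
Level of SLC7A8, SLC1A1 and SLC16A3 (vertical axes, CPM + 0.02, log axis) against the summed level of 7 mesothelial markers (horizontal axis, CPM, log axis) in each clone, with A clones in red, N clones in blue and the animal as symbol. Clones 22-5 and 22-9 lie at the upper right in each panel, apart from the other 18 clones.

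Animals 22 and 23, with 4 A and 4 N clones each, allowed a test of whether a transporter's change differed with the animal. Of 42 members tested, 0 were called by edgeR, against 0.031% of all genes, and 7 had an unadjusted p under 0.05 (16.7% of the members, against 9.06% of all genes). The lowest adjusted p was 0.333, for SLC1A1, whose log2 fold change was 6.68 higher in animal 23 than in animal 22 (SE 1.91), and DESeq2 called this gene alone. SLC1A1 was high in N clones 22-5 and 22-9, which both come from animal 22.

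Across clones of 1 type, several transporters followed ASNS, a target gene of ATF4. Pearson and Spearman correlations of log2 CPM were computed for 20 relations over 10 clones each, with permutation p-values adjusted over the 20. Clones of 1 animal are not fully independent, so r over values centred within animals 22 and 23 (8 clones) is given as well, with no test. Of the 20, 10 passed for Pearson's r and 7 passed for both coefficients.

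SLC7A11 and ASNS correlated in A clones with r = 0.957 and rho = 0.83 (permutation, adjusted p = 0.0017 and 0.0488). The value was 0.911 without the 2 clones farthest in ASNS and 0.965 within animals. In N clones r was 0.807 and rho 0.673 (permutation, adjusted p = 0.0149 and 0.079), and r was 0.612 without the 2 farthest clones and 0.874 within animals.

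SLC1A5 followed ASNS with r = 0.778 and rho = 0.733 in A clones (permutation, adjusted p = 0.0167 and 0.0498) and r = 0.939 and rho = 0.758 in N clones (permutation, adjusted p = 0.0021 and 0.0498). SLC1A4 followed it with r = 0.79 and rho = 0.733 in A clones (permutation, adjusted p = 0.0167 and 0.0498) and r = 0.884 and rho = 0.806 in N clones (permutation, adjusted p = 0.0023 and 0.0488). SLC7A5 followed it with r = 0.762 and rho = 0.624 in A clones (permutation, adjusted p = 0.026 and 0.11) and r = 0.897 and rho = 0.758 in N clones (permutation, adjusted p = 0.0022 and 0.0498). Without the 2 farthest clones these 6 values of r lay between 0.664 and 0.883, and within animals between 0.768 and 0.959.

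The heavy chain SLC3A2 tracked SLC7A11 in A clones with r = 0.923 and rho = 0.842 (permutation, adjusted p = 0.0017 and 0.0488), and r was 0.892 without the 2 farthest clones and 0.946 within animals. In N clones r was 0.111 and rho -0.04 (permutation, adjusted p = 0.785 and 0.946), with -0.17 within animals. SLC3A2 and ASNS had r = 0.882 and rho = 0.673 in A clones (permutation, adjusted p = 0.0023 and 0.079) and r = 0.274 and rho = 0.0303 in N clones (permutation, adjusted p = 0.524 and 0.946). Within animals r was 0.892 in A and -0.50 in N clones, and without the 2 farthest N clones it was -0.49, a change of sign from all 10. The difference between clone types was not tested. BSG and SLC16A1 did not pass in A clones (r = 0.489, rho = 0.491, permutation, adjusted p = 0.214 and 0.237) or in N clones (r = -0.34, rho = -0.37, permutation, adjusted p = 0.441 and 0.416), while within animals r was 0.844 in A and -0.71 in N clones. Of the 4 relations of SLC3A2 with SLC7A5 and SLC7A6, r within animals was 0.718 and 0.785 in A and -0.55 and 0.0111 in N clones, and for BSG with SLC16A3 it was -0.10 and 0.48.

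**Figure D5:**
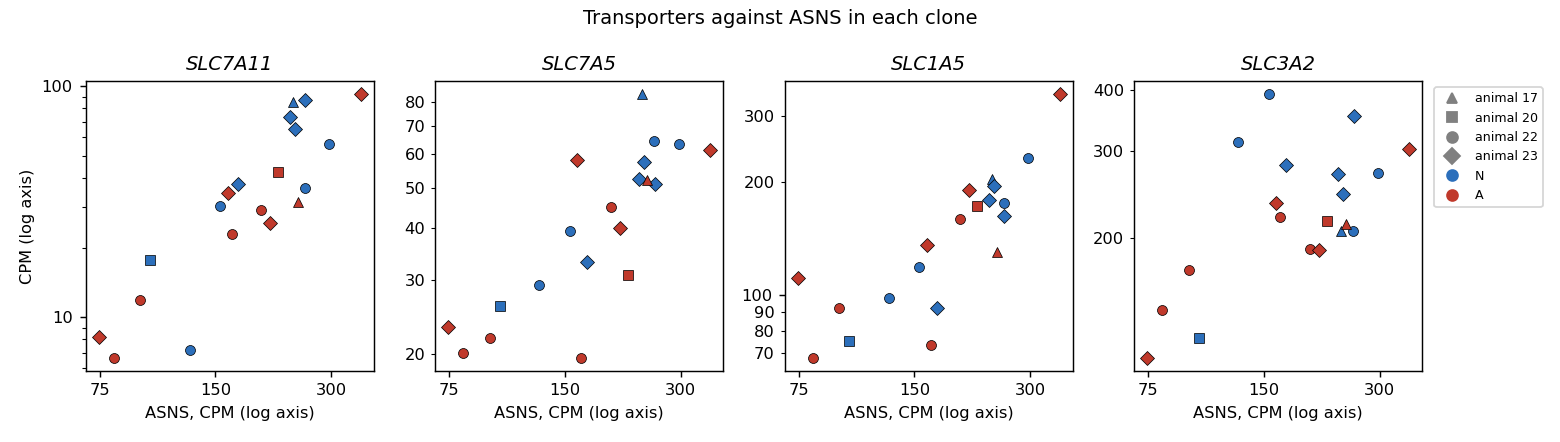
Levels of SLC7A11, SLC7A5, SLC1A5 and SLC3A2 (vertical axes, CPM, log axis) against ASNS (horizontal axis, CPM, log axis) in each of the 20 clones, with A clones in red, N clones in blue and the animal as symbol. SLC7A11 rises with ASNS among the A clones (r = 0.957), while SLC3A2 does so in the A (r = 0.882) more than in the N clones (r = 0.274), a difference that was not tested.

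The 32 members that did not pass the filter were low in most clones, and the highest single value was 112 counts, in SLC38A4. No count was found for 4 of them (SLC1A6, SLC6A18, SLC6A19 and SLC7A9), 10 had fewer than 10 counts over all 20 clones, and 18 had 10 or more, with at most 387 counts, for SLC38A4. When no filter was applied, SLC7A4, which is related to the cationic carriers, and SLC16A6, a carrier of ketone bodies, were called as well. Both were named after their values were seen. In that fit 8.7% of the members were called, against 11.8% of all genes. SLC7A4 had 2 to 25 counts in A and 0 to 5 counts in N clones (log2 fold change 2.77, SE 0.492, adjusted p = 0.0022 by edgeR). SLC16A6 had 0 to 82 counts in A and 0 to 9 counts in N clones (log2 fold change 3.06, SE 0.684, adjusted p = 0.0082 by edgeR).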

How the data were processed

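RNA of 20 undifferentiated MSC clones was sequenced. Reads were trimmed with Trimmomatic 0.36, mapped with STAR 2.5.2b to ARS-UCD1.2 and counted over exons with Subread 1.5.2, per the labels and the study's methods, and the authors deposited raw counts per gene. The strand setting is not given in the sources used here. A row without a name held 0.113% to 0.333% of counts per clone and was left out.

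Groups and animals came from the labels. From the counts, edgeR 4.0.16 in R 4.3.3 (TMM, default filter, robust quasi-likelihood, animal as block) was fitted to all genes, and CPM use TMM factors. Log2 CPM had a prior count of 2. SE is the log2 fold change over the square root of F. Clones pair by animal, and deviations from the group means correlated between A and N clones of 1 animal at 0.253, 0.193, 0.241 and 0.440 in animals 17, 20, 22 and 23. Correlations used 100000 permutations (SciPy 1.17.1). The edgeR fit was tested on simulated data.

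Alternatives were other normalizations and filters, no block, DESeq2 1.42.0, limma-voom (limma 3.58.1), sums per animal, and leaving out clones or animals. Members named are those called or without overlap, plus 20 fixed by role; others are said to be named after their values were seen. The result of 1 called member is not reported here. Of each companion list, the called genes and the 2 of highest CPM are named. The members and lists were chosen with earlier results of these data known. CPM are not per transcript length, so that order is no ranking of transcript abundance between genes.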

Additional observations from a re-analysis of the deposited data

Results flagged for a closer look

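In 9 of 80 groups (40 tested members in A and in N clones) the highest or lowest clone lay far from the other 9, with a gap to the nearest clone above 0.466 of the group's range on the log2 scale. Chance flags about 1 in 20 groups, or 4 of 80, and 5 of the 9 clones came from animals 17 or 20, which gave 1 clone per type.

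In A clone 20-106, SLC16A10 was the highest (12.8 CPM against 4.28 in the next clone, gap 0.632). The same clone was lowest for SLC38A6 (7.79 against 13.0 CPM, gap 0.531) and SLC7A7 (0.735 against 2.38 CPM, gap 0.522), both named after their values were seen.

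In A clones, SLC1A1 was lowest in 17-57 (0 against 0.731 CPM, gap 0.540), SLC38A7 in 22-16 (18.9 against 24.2 CPM, gap 0.477) and SLC7A1 in 22-121 (46.8 against 75.4 CPM, gap 0.478). In N clones, SLC16A11 and SLC43A1 were lowest in 22-18 (0.433 against 2.40 CPM, gap 0.565, and 4.86 against 15.6 CPM, gap 0.490), and SLC7A1 was lowest in 20-15 (56.9 against 83.1 CPM, gap 0.495). SLC38A7 and SLC16A11 were named after their values were seen.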

How the results depend on the processing

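The 5 members called, and the 2 called at 2-fold, became 2 and 0 where every clone had to hold 10 counts (fewer genes tested), 11 and 8 with DESeq2 and the replicate block (19.6% of members against 23.7% of all genes called), 0 and 0 with counts summed per animal and condition (6 at an unadjusted p under 0.05, 13% of members against 15.3% of all genes), 0 and 0 without animal 23 (7 at an unadjusted p under 0.05, 16.7% of members against 20.9% of all genes, with 0.245% of all genes called) and 1 and 1 in animal 22 alone. With at least 10 counts in every clone, 6.9% of members were called, against 21.1% of all genes. The first count was 3 with limma-voom (7.32% of members against 19.9% of all genes) and 2 in animal 23 alone (5.13% against 6.22%). The second was 4 with no filter, with DESeq2 without the replicate block and without N clones 22-5 and 22-9, an alternative chosen after seeing the data. Members were called at a higher share than all genes without animal 22 (15.8% against 11.5%) and in animal 22 alone (2.38% against 1.15%). Leaving out each clone gave 3 to 6 and 2 to 3, with 7.32% to 14.6% of members and 15.3% to 24.1% of all genes called. The count of 3 arose without N clones 23-10 or 23-22 or A clone 22-27. The interaction count of 0 became 1 with DESeq2. The 24 companion genes called became 0 with summed counts, 0 without animal 23, 12 without animal 22, 2 in animal 22 alone and 9 in animal 23 alone. The shares of all genes called in these settings, in the same order, were 0%, 0.245%, 11.5%, 1.15% and 6.22%, against 20.6% in the main fit. Without 1 clone, 18 to 29 companion genes were called, with 15.3% to 24.1% of all genes. Whether the companion genes differed from all genes in this was not tested. Of the 24, 6 were lost without the replicate block (AMD1, ATF3, BCKDHA, GLUD1, OAT and SAT1), 4 with limma-voom (AMD1, BCKDHA, EMB and SAT1) and 0 with DESeq2 and the replicate block.

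Of 773 refits of 21 named members, 705 kept direction and side of the threshold, 44 lost a call (4 genes), 1 gained it (SLC38A1 without animal 22, adjusted p = 0.048 by edgeR) and 23 changed sign (8 genes, none of them called). In these the log2 fold changes were: in animal 23 alone, SLC16A3 0.68, SLC1A5 0.31, SLC36A1 0.023, SLC38A2 0.061 and SLC43A2 0.18; in animal 22 alone, SLC38A1 -0.25 and SLC6A6 -0.53; without animal 22, SLC1A5 0.30, SLC36A1 0.062, SLC38A2 0.13 and SLC43A2 0.21. With summed counts they were SLC1A3 -0.76, SLC1A5 0.070, SLC36A1 0.0026 and SLC43A2 0.12, and without the replicate block SLC1A3 was -0.090 (edgeR) and -0.065 (DESeq2). SLC43A2 was 0.10 with limma-voom, and without N clones 22-5 and 22-9 it was 0.45 and SLC16A3 0.35. Without 1 clone, SLC1A5 ranged from -0.28 to 0.032 and SLC43A2 from -0.44 to 0.14. The cause was not tested.

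SLC16A10 and SLC7A6OS were called in all 20 fits without 1 clone, and lost the call without animal 23 (adjusted p = 0.0813 and 0.189 by edgeR), where SLC16A1 had a log2 fold change of 0.32 (adjusted p = 0.444 by edgeR). DESeq2 gave no adjusted p for some low genes, which were left out of these counts. Animals 17 and 20 gave 1 clone per type, so leaving out either clone removes the animal from the comparison.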
